A study of Mus musculus with 3 samples.

Results

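The thioredoxin system of 3T3-L1 adipocytes was measured after 2 h of glucose oxidase in 10 genes, out of 18194 genes that had a probe set of their own on the array. The genes were 2 thioredoxins (Txn1 and Txn2), 3 thioredoxin reductases (Txnrd1, Txnrd2 and Txnrd3), the thioredoxin inhibitor Txnip, 3 peroxiredoxins (Prdx2, Prdx3 and Prdx4) and the sulfiredoxin gene Srxn1. They were chosen by name, and each of the 28 probe sets annotated to 1 of these genes alone was used, out of 45101 probe sets on the array. RNA came from 3 samples of the mouse line 3T3-L1, a clonal fibroblast line that was differentiated into fat cells in culture and then treated with glucose oxidase, an enzyme that releases hydrogen peroxide as it oxidises glucose. All 3 samples carried the same treatment, and control arrays were not analysed here, so each value is a level after treatment and no change with treatment could be tested. The design text calls them experimental replicates without naming cultures, and the spread between them may be technical. The tissue label named preadipocytes and the source label named insulin resistant adipose cells, whereas the growth protocol described adipocytes.

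Thioredoxins are small proteins that reduce disulphide bonds in other proteins through a pair of cysteines, and thioredoxin reductases, which are selenoproteins, return them to the reduced form with electrons from NADPH. Peroxiredoxins break down hydrogen peroxide with a reactive cysteine and are in turn reduced by thioredoxin. Under strong oxidation that cysteine can be overoxidised and lose its function, and sulfiredoxin reverses this step. The system works in parallel in the cytosol (Txn1, Txnrd1 and Prdx2) and in mitochondria (Txn2, Txnrd2 and Prdx3), while Prdx4 acts in the endoplasmic reticulum. In fat cells Txnip is also known as a brake on glucose uptake.

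Some genes of this system are known targets of the oxidant-responsive factor NRF2, which binds the antioxidant response element, and of AP-1, the dimer of FOS and JUN proteins. RefSeq promoter windows of build GRCm38.p6, which run from 250 bases before to 50 bases after an annotated start site, were found for all 10 genes, in 12 windows. The core of the antioxidant response element, TGACNNNGC, was searched on both strands and was present in windows of Srxn1 and Txnrd1, 2 of the 10 genes, against 14.0% of 27025 genes in the table. The AP-1 motif was searched as TGANTCA, with any base at N. It was present in the Srxn1 window alone among the 10 genes, against 8.97% of all genes. Both Srxn1 matches read TGAGTCA, and the share of genes with that narrower string was not counted. The E-box CACGTG was present in the Prdx4 window alone among the 10 genes, against 8.09% of all genes. The windows of Srxn1 (plus strand, chr2:152105274-152105573) and of 1 of 3 annotated starts of Txnrd1 (plus strand, chr10:82858956-82859255) are shown because they held the response element core and their genes' brightest probe sets were among the 5 with an SD between arrays over 0.1 log2 units. Capitals mark TGACNNNGC and TGANTCA on either strand, which do not overlap here.
Srxn1: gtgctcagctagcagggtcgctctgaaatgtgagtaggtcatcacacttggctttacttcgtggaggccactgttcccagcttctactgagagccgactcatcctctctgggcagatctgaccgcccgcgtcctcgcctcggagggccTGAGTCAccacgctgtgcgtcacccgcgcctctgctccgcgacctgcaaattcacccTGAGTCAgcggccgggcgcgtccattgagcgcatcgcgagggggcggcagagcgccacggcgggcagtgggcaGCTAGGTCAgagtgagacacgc
Txnrd1: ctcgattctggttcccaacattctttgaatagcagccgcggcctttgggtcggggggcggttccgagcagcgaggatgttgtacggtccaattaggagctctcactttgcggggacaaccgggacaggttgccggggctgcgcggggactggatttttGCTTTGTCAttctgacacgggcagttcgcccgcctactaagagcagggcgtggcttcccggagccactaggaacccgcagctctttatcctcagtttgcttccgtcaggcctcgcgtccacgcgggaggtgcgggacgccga
In Srxn1 the AP-1 motifs began 102 and 45 bases before the start site and the response element core 28 bases after it, and in Txnrd1 the core began 92 bases before the start site. The AP-1 motif at 45 bases is followed by gc and so differs from the searched core by 1 base. Looser forms of the response element were not searched. A match is a string of letters in a window, and binding was not measured.

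Intensities were used as log2 of the deposited values. Medians over all probe sets were 127.6, 126.9 and 126.9 on the linear scale in replicates 1, 2 and 3, and Pearson's r between pairs of arrays was 0.997 to 0.998 across the 17449 probe sets above background, which are not independent replicates. Background was set at a log2 intensity of 7.58, a level that 95 percent of 83 probe sets for taste, vomeronasal and olfactory receptor genes, which fat cells should hardly express, did not exceed. A probe set was counted as above background if it exceeded this level in all 3 arrays, and a gene if any of its probe sets did. All 7 measured adipocyte markers passed, including Adipoq, which encodes adiponectin, at 14.49 ± 0.031 (SD, n = 3). Of 6 preadipocyte and fibroblast markers 5 passed, including Dlk1 at 13.24 ± 0.10 (SD, n = 3), whereas 1 of 5 macrophage markers (Csf1r) and 0 of 3 endothelial markers did. Markers of differentiated adipocytes were thus present, and so were those of fibroblasts. In such bulk samples, fewer cells of a type and less RNA per cell cannot be told apart.

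All 10 genes were above background after glucose oxidase, where 54.4% of all genes on the array were. Of their 28 probe sets 24 passed, against 38.7% of all probe sets, named or not. A gene with more probe sets has more chances to pass. The 10 genes had 28, where all 18194 genes had 34958 of their own, and the 54.4% was not adjusted for this. Every probe set passed for 7 of the 10 genes. The 4 that did not pass belonged to Txnrd1 (2 probe sets), Txnrd2 (1) and Prdx4 (1). Intensities of different probe sets depend on their probes, so they are not amounts of RNA that can be ranked between genes.

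**Figure D1:**
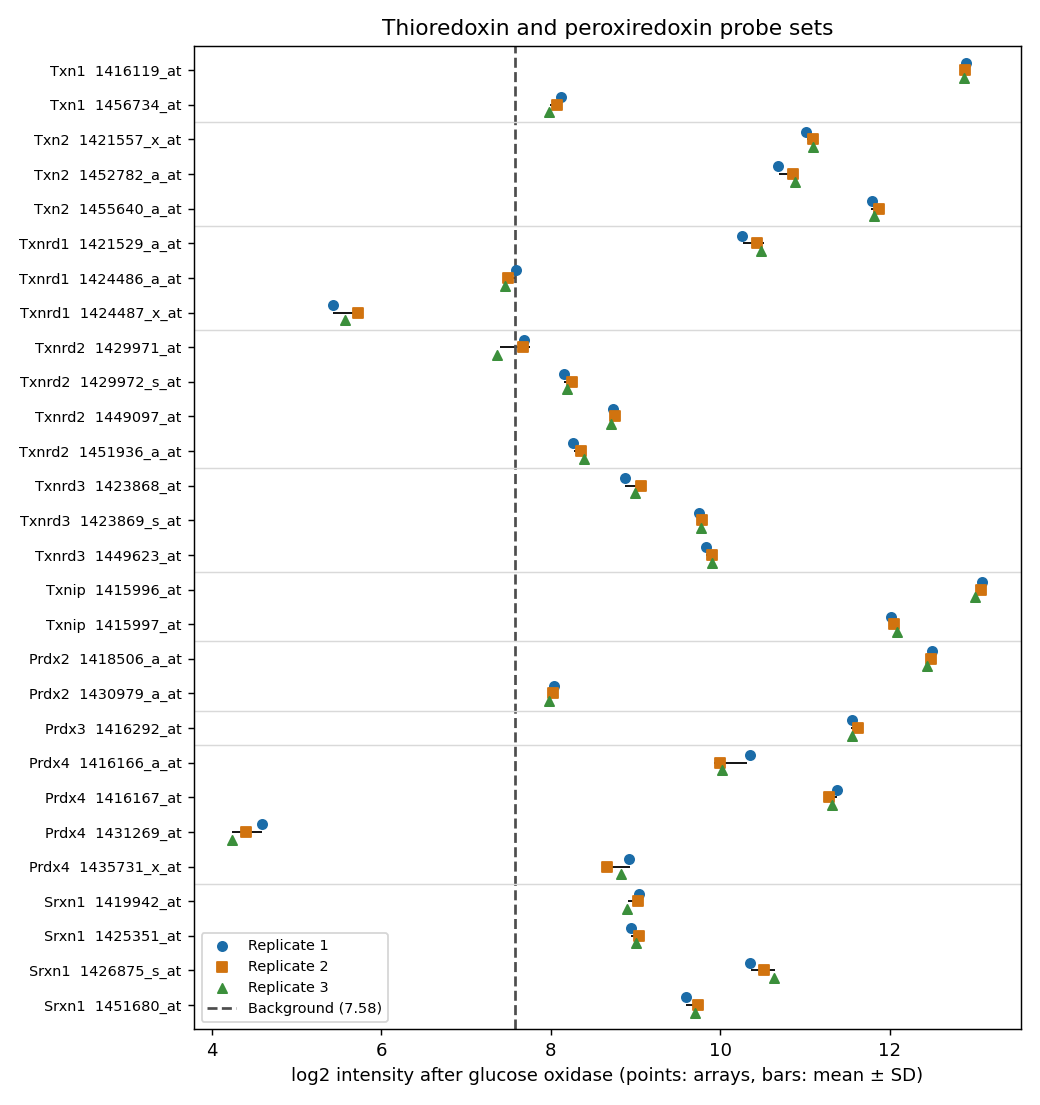
Log2 intensity (x axis) of the 28 probe sets of the 10 genes (y axis, gene and probe set name) after 2 h of glucose oxidase, with 1 symbol per replicate, horizontal bars for the mean ± SD (n = 3) and a dashed line for background (7.58). The points of a probe set lie close together, whereas probe sets of 1 gene can lie far apart, as the Prdx4 probe sets at 11.33 and 4.42 do.

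Both thioredoxin genes were detected by all their probe sets. Txn1, the cytosolic thioredoxin, had log2 intensities of 12.89, 12.89 and 12.87 in replicates 1, 2 and 3 by probe set 1416119_at, with a mean of 12.88 and an SD of 0.014. Its other probe set, 1456734_at, gave 8.13, 8.07 and 7.98, only 0.48 above background on average. The arrays were close by the brighter probe set, with an SD wider than that of only 6.17% of probe sets above background. Both probe sets had replicate 3 as the lowest array. Txn2, the mitochondrial thioredoxin, had 11.79, 11.87 and 11.81 by probe set 1455640_a_at and lay between 10.68 and 11.09 in every array by 1421557_x_at and 1452782_a_at. By all 3 Txn2 probe sets replicate 1 was the lowest array, and the difference between the highest and the lowest array reached 1.15-fold by 1452782_a_at.

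The 3 reductase genes differed in how far detection rested on the probe set. Elsewhere the study used the drug auranofin to inhibit thioredoxin reductase, without naming an isoform. Txnrd1, the cytosolic reductase, had 10.25, 10.43 and 10.48 in replicates 1, 2 and 3 by probe set 1421529_a_at. Replicate 1 was the lowest, 1.18-fold below the highest, and the SD of 0.12 was wider than that of 96.3% of the 3017 probe sets within 0.5 of its level on the log2 scale. The other Txnrd1 probe sets stood at 7.51 ± 0.069 (1424486_a_at) and 5.58 ± 0.14 (1424487_x_at; SD, n = 3 each). The first of them straddled background, being above it in 1 of the 3 arrays, and the second was below it throughout. The median of the 3 Txnrd1 probe sets was 7.51, so that by the median the gene was not above background.

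Txnrd2, the mitochondrial reductase, was at 8.74 ± 0.026 by probe set 1449097_at, 8.34 ± 0.063 by 1451936_a_at and 8.20 ± 0.048 by 1429972_s_at (SD, n = 3 each). The last probe set, 1429971_at, gave 7.68, 7.67 and 7.37, and only its replicate 3 value was below background. The brightest Txnrd2 probe set was 2.22-fold above the background intensity. Txnrd3, a reductase that also carries a glutaredoxin domain and is best known from testis, was above background by all 3 probe sets. By 1449623_at it had 9.83, 9.91 and 9.90 in replicates 1, 2 and 3, and by 1423868_at 8.87, 9.06 and 8.99. The remaining Txnrd3 probe set, 1423869_s_at, was at 9.77 ± 0.020 (SD, n = 3). Replicate 1 was the lowest and replicate 2 the highest array by each of the 3 Txnrd3 probe sets.

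Txnip binds reduced thioredoxin and blocks it. It had log2 intensities of 13.08, 13.08 and 13.01 in replicates 1, 2 and 3 by probe set 1415996_at, and 12.01, 12.05 and 12.09 by 1415997_at. Replicate 3 was the lowest array by the first probe set and the highest by the second, with a difference of 1.06-fold or less between arrays by either. The probe sets thus gave the arrays no common order.

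Of the peroxiredoxins, the cytosolic Prdx2 had 12.50, 12.48 and 12.43 in replicates 1, 2 and 3 by probe set 1418506_a_at, and the mitochondrial Prdx3 had 11.56, 11.62 and 11.55 by its only probe set, 1416292_at. The second Prdx2 probe set, 1430979_a_at, was at 8.01 ± 0.028 (SD, n = 3), 4.46 below the first on the log2 scale. Both Prdx2 probe sets placed replicate 3 lowest and replicate 1 highest, and the highest exceeded the lowest by 1.04-fold by either. Prdx2 and Prdx3 are the peroxiredoxins whose oxidation at the protein level the study used as a readout of oxidative stress. That state of the proteins cannot be read from RNA.

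Prdx4 differed most between the arrays. By probe set 1416166_a_at it had 10.34, 9.997 and 10.01 in replicates 1, 2 and 3, so that replicate 1 stood apart from the other two and was 1.27-fold above the lowest. This was the widest of the 24 probe sets above background, with an SD of 0.20 that was wider than that of 99.4% of all probe sets above background. By 1435731_x_at Prdx4 had 8.92, 8.66 and 8.82, and by 1416167_at 11.38, 11.28 and 11.32. Replicate 1 was the highest and replicate 2 the lowest by each of these 3 Prdx4 probe sets, although the difference was 1.07-fold by 1416167_at. The last Prdx4 probe set, 1431269_at, lay well under background at 4.42 ± 0.18 (SD, n = 3). The 5 preadipocyte and fibroblast markers above background were lowest in replicate 2 in 5 of 5, against 24.8% of all probe sets above background. They were highest in replicate 1 in 3 of 5 and in replicate 3 in 2 of 5, unlike the Prdx4 probe sets. Their summed linear intensity was 36277, 33589 and 35679.5 in replicates 1, 2 and 3. The summed intensity of the 7 adipocyte markers was 93419, 92523 and 91861. The part of these cells in the Prdx4 pattern was not tested.

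Srxn1 was above background by all 4 probe sets. By 1426875_s_at, the brightest, it had 10.35, 10.51 and 10.63 in replicates 1, 2 and 3, a difference of 1.21-fold between the highest and the lowest array and an SD wider than that of 97.9% of probe sets near its level. Names ending in _s_at mark probe sets prone to cross-hybridisation. By 1451680_at Srxn1 had 9.59, 9.74 and 9.70, and by 1425351_at 8.94, 9.04 and 9.01. Replicate 1 was the lowest array by 1426875_s_at, 1451680_at and 1425351_at. By the remaining one, 1419942_at, it was the highest, at 9.04 against 9.03 and 8.90. The SDs of 1451680_at, 1425351_at and 1419942_at were 0.077, 0.049 and 0.077, so Srxn1 had an SD over 0.1 by 1426875_s_at alone. The bright probe sets of Srxn1 and Txnrd1, the genes with the response element core, departed from their means by -0.15, 0.02 and 0.13 and by -0.14, 0.04 and 0.09 in replicates 1, 2 and 3. The Txn2 probe set 1452782_a_at, whose gene's window held no such core, departed in the same order by -0.13, 0.05 and 0.07, and 1424486_a_at of Txnrd1, near background, in the opposite order by 0.08, -0.02 and -0.06. Replicate 1 was also the lowest array for 46.4% of all probe sets above background, and for 13 of the 24 probe sets of the 10 genes. The median departure in replicate 1 was -0.028 over these 24 and -0.016 over all probe sets above background. The Srxn1 and Txnrd1 windows were shown partly because these probe sets had a wide SD. The part of the response element core in these departures was not tested.

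**Figure D2:**
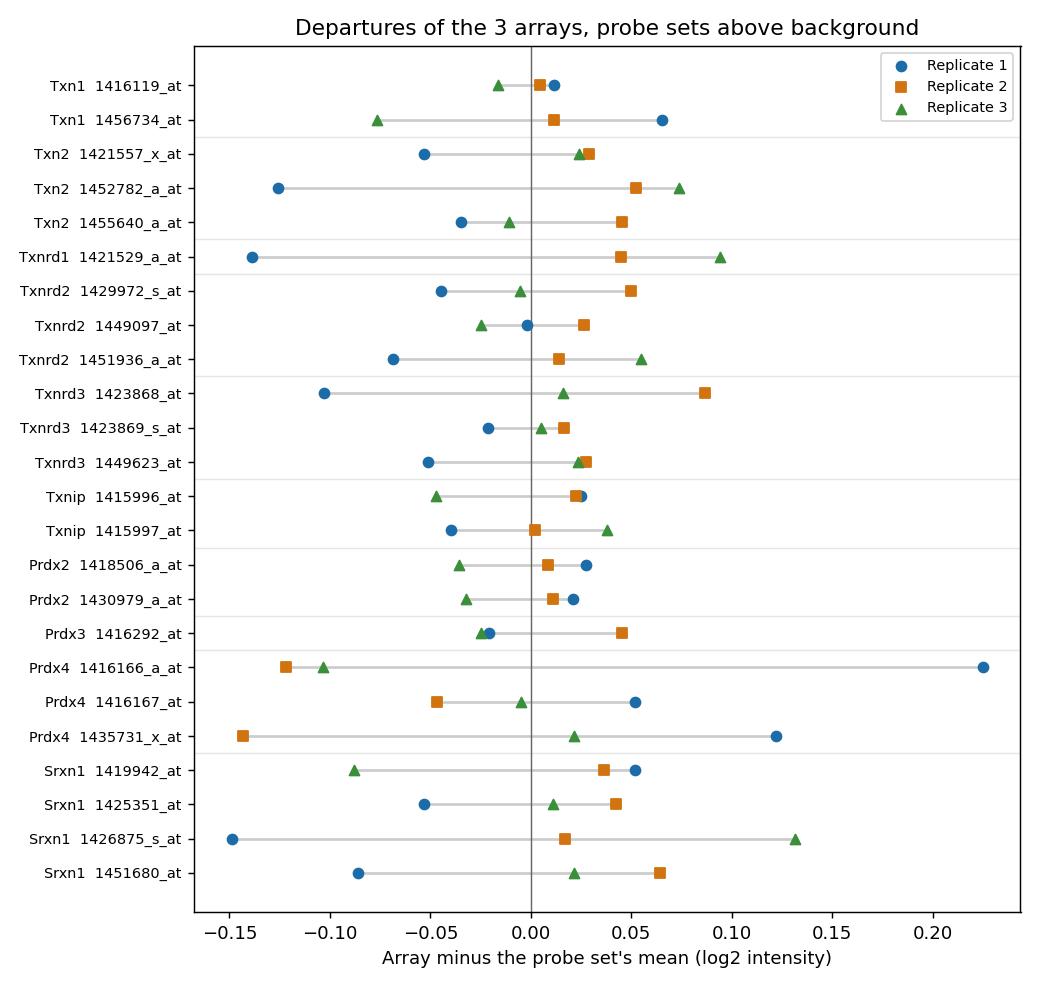
Difference of each array from the mean of its probe set (x axis, log2 intensity) for the 24 probe sets above background (y axis), with 1 symbol per replicate and a grey line over their range. Replicate 1 is highest by all 3 Prdx4 probe sets, whereas it is lowest by all 3 Txn2 and all 3 Txnrd3 probe sets.

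Of the 8 genes with several probe sets above background, 5 had the same lowest array by all of them (Txn1, Txn2, Txnrd3, Prdx2 and Prdx4), and 4 of these also the same highest array. Over 3874 genes of the array with several such probe sets, 37.3% had the same lowest array by all and 19.3% both. Probe sets of 1 gene measure the same RNA sample and are not replicates of the treatment. After each array was centred on its median, 1416119_at of Txn1 and 1415996_at of Txnip had replicate 2 as the highest array and Prdx3 had replicate 1 as the lowest, so these orders depended on the scaling, as did the shared highest array of Txn1.

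The median SD was 0.048 over the 24 that passed, and 0.051 over all 17449 that did. Against probe sets within 0.5 of their own level on the log2 scale, 15 of the 24 had an SD above the median, and their median percentile was 55.6. The order of the medians rested on single arrays. Without replicate 1 the median SD was 0.031 for the 24, against 0.039 for the array, and without replicate 3 it was 0.057, against 0.038. By the difference between the highest and the lowest array, 15 of the 24 were within 1.1-fold, where 72.2% of all probe sets above background were, and 0 exceeded 1.5-fold, against 19 on the whole array. The narrowest SD was that of the bright Txn1 probe set and the widest that of the Prdx4 probe set described above. The other SDs over 0.1 were those of the brightest Txnrd1 and Srxn1 probe sets, of 1452782_a_at of Txn2 and of 1435731_x_at of Prdx4.

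**Figure D3:**
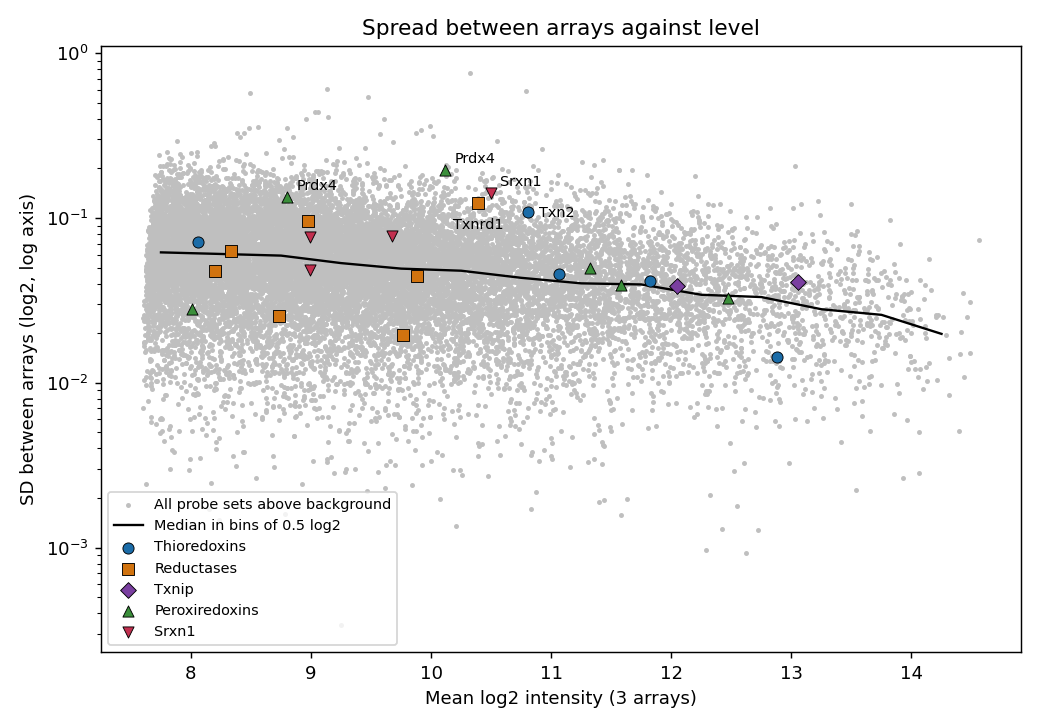
SD between the 3 arrays (y axis, log2 units on a log axis) against mean log2 intensity (x axis), with all 17449 probe sets above background in grey, their median in bins of 0.5 as a line, and the 24 probe sets of the 10 genes by kind, labelled where the SD is over 0.1. The 5 labelled probe sets lie well above the line, and the bright Txn1 probe set at an SD of 0.014 lies below it.

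Genes around the thioredoxin system were taken from 8 lists of 62 genes, of which 58 had a probe set of their own. Of these 58, 53 were above background, or 91.4%, where 54.4% of all genes on the array were. These shares were not adjusted for the number of probe sets per gene. The remaining peroxiredoxins gave no value of their own. Prdx1 was named only together with Gm21399, by 5 probe sets at means from 11.38 to 13.44 that cannot be assigned to either, and Prdx5 and Prdx6 were not analysed here, nor was G6pdx.

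**Figure D4:**
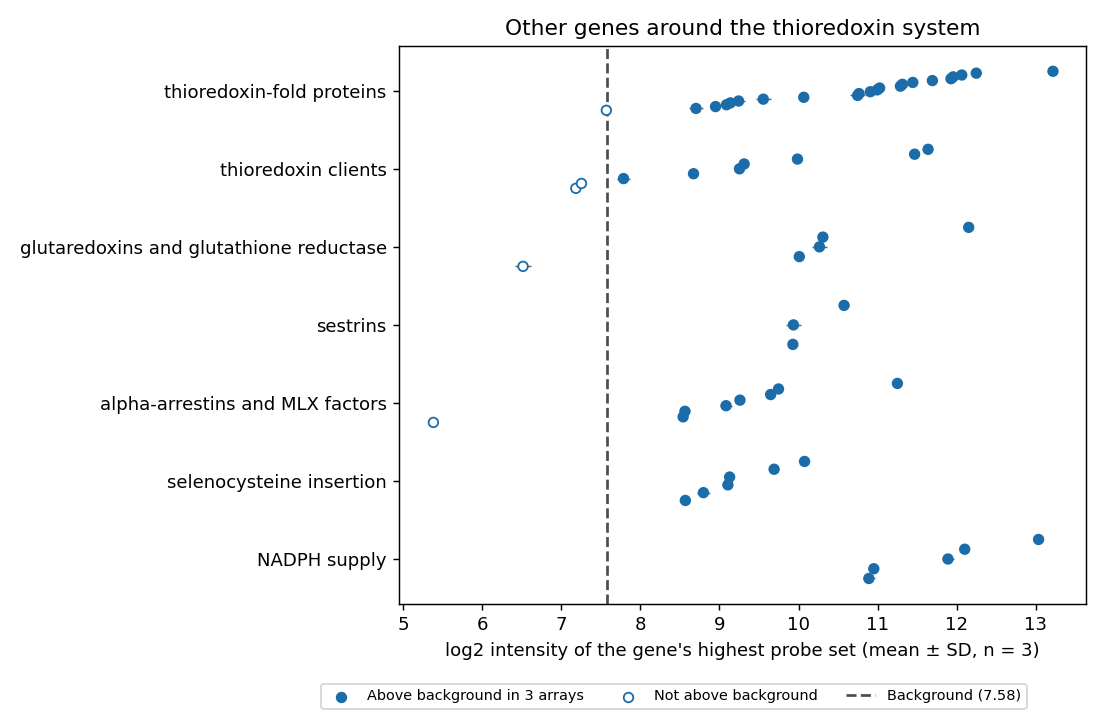
Log2 intensity of the highest probe set (x axis, mean ± SD, n = 3) for the 58 measured genes of the lists around the thioredoxin system (rows), with filled symbols above background in all 3 arrays, open symbols otherwise and a dashed line for background (7.58). Open symbols stand for 5 genes, and Ero1b lies almost on the line.

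Among proteins with a thioredoxin fold and the oxidases that drive them, 21 of 22 were above background. The protein disulphide isomerase gene P4hb was at 13.22 ± 0.017, the cytosolic Txndc17 at 12.25 ± 0.032 and Txnl1 at 12.06 ± 0.023 (SD, n = 3 each). Of 6 Txnl1 probe sets 3 passed, and by their median Txnl1 was not above background. Ero1b, an oxidase of the endoplasmic reticulum, had 7.54, 7.61 and 7.57 and was above background in 1 of 3 arrays, whereas its paralogue Ero1a was at 11.69 ± 0.05 (SD, n = 3). Of 9 genes for clients of thioredoxin 7 were above background. They included the redox factor Apex1 at 11.64 ± 0.016, the methionine sulphoxide reductase Msrb1 at 11.47 ± 0.02 and Msra at 9.99 ± 0.052 (SD, n = 3 each). The ribonucleotide reductase subunit Rrm2, known from dividing cells, was below background at 7.18 ± 0.025, as was Msrb2 at 7.25 ± 0.035 (SD, n = 3 each).

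Glutaredoxins do similar work with glutathione in place of thioredoxin reductase. Of 5 genes for glutaredoxins and glutathione reductase 4 were above background, with Glrx5 at 12.15 ± 0.02, Glrx2 at 10.31 ± 0.0064 and Glrx at 10.26 ± 0.092 (SD, n = 3 each), and Glrx3 was not, at 6.52 ± 0.10 by its only probe set (SD, n = 3). Sestrins, stress-induced proteins linked to peroxiredoxin repair, were above background in 3 of 3, with Sesn2 at 10.57 ± 0.061, Sesn1 at 9.93 ± 0.092 and Sesn3 at 9.93 ± 0.045 (SD, n = 3 each).

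Txnip belongs to the alpha-arrestins, and its transcription is known to follow glucose through MLXIP and MLXIPL with their partner MLX. Of 8 genes in that list 7 were above background, among them Arrdc3 at 11.25 ± 0.038, Arrdc1 at 9.75 ± 0.017 and Mlx at 9.65 ± 0.05 (SD, n = 3 each). Arrdc5 was not, at 5.38 ± 0.035 (SD, n = 3). The machinery that puts selenocysteine into the reductases was above background in 6 of 6 genes, with Trnau1ap at 10.08 ± 0.012, Sephs2 at 9.69 ± 0.045 and Pstk at 9.13 ± 0.045 (SD, n = 3 each). Of 2 Pstk probe sets 1 passed, and by their median Pstk was not above background. All 5 measured genes for NADPH supply were above background, with Idh1 at 13.03 ± 0.016, Pgd at 12.10 ± 0.03 and Me1 at 11.89 ± 0.08 (SD, n = 3 each).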

How the data were processed

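The authors deposited linear intensities from mouse4302 arrays, made with RMA (background correction and normalization) in affyPLM; its version is not stated in the methods read here. Which arrays were normalized together, and any later scaling or centring, stay unknown, so log2 was taken of the values as deposited. The number of arrays limits the precision. Of the probe sets, 34958 were annotated to 1 gene, 932 to several and 9211 to none, and 34754 of the first kind matched RefSeq GRCm38.p6 by Entrez identifier, with 0 symbols changed. The treatment time came from the paper. The 10 genes and the lists around them were chosen with earlier results of these data known. All probe sets of the 10 genes were named, and in each list the genes not above background and at most 3 with the highest level. Ero1a, Csf1r, Adipoq and Dlk1 were named after their values were seen. SDs are between the 3 arrays. With 1 group, no test was made, and likeness of patterns was not computed over 3 arrays. Alternatives were other background levels and genes, the median of probe sets, omission of probe sets prone to cross-hybridisation (names ending in _s_at or _x_at), centring, no filter, omission of each array and a coefficient of variation. Python 3.11.15, pandas 2.3.3, numpy 2.4.6 and matplotlib 3.10.9 were used.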

Additional observations from a re-analysis of the deposited data

How the results depend on the processing

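No paired analysis was possible because all 3 arrays carried the same treatment. All 10 genes stayed above background with the background at percentile 99 or 90, with defensin and keratin-associated genes in place of receptors, on centring, without probe sets that can cross-hybridise and on leaving out each array, and 9 did with the median of probe sets, by which Txnrd1 was not. The 24 probe sets above background were 22 to 25 under the other backgrounds, on centring and on leaving out each array, and 19 of 22 without those that can cross-hybridise. The 53 genes around the system were 47 to 54. The median SD of 0.048 was 0.031 to 0.057 on leaving out each array. Without replicates 1, 2 and 3 it was 0.031, 0.054 and 0.057 for the 10 genes, against 0.039, 0.047 and 0.038 over all probe sets above background, so that the 10 genes were below the array without replicate 1 and above it without replicate 2 or 3. By the median of probe sets, 9 of the 10 levels shifted by over 1 SD, all but that of Prdx3 with its 1 probe set. Signal near background limits 1424486_a_at of Txnrd1 and 1429971_at of Txnrd2. It also limits 1456734_at of Txn1 and 1430979_a_at of Prdx2, which were not above the background at percentile 99 (8.05). There these genes passed by their brighter probe sets alone. The shared array orders of Txn1 and Prdx2 rested on the dimmer ones too.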
